A study of Arabidopsis thaliana with 12 samples.

Results

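The transcripts described here are probe sets of Arabidopsis T87 suspension cells whose abscisic acid (ABA) response was larger when dimethylthiourea (DMTU) was also present, and which carry no gene symbol. They were chosen by measured group means on the log2 scale, where a difference of 1 is a 2-fold change. ABA+DMTU had to lie at least 1 above DMTU, and this difference had to exceed the ABA minus control difference by at least 1.25, a quantity called the interaction here. Of 22746 probe sets, 185 met both thresholds. The 25 of these whose annotation gave a symbol were set aside, which left 160 members. A single locus was listed for 62 members, several loci for 3, and no gene for 95. The IDs of 10 members end in _s_at, the suffix for probes that can match several transcripts. Contrasts of the means that chose the members are given as description, and counts of members called in them support nothing.

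T87 is a suspension line of the Columbia background (Col-0), used after 5 days of culture and treated for 20 h. Control cells received ethanol, and the ABA group 50 µM ABA. The DMTU group received ethanol and 5 mM DMTU, and the ABA+DMTU group both agents at those concentrations. Each of the 4 groups held 3 arrays, and all 12 were used. Nothing in the labels ties replicates to separate cultures, and p-values here may reflect technical spread only.

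ABA is the plant hormone of drought and seed maturation. It binds soluble receptors that inhibit protein phosphatases, which frees kinases that activate bZIP transcription factors at ABA-responsive promoters. Hydrogen peroxide is formed during ABA signalling, for example by NADPH oxidases in guard cells, and DMTU is used to scavenge it. Among the study's questions was what this scavenger does to ABA-dependent gene activation.

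Several arrays stood apart. Over the 160 members, replicate 1 of control differed from replicates 2 and 3 with SDs of 1.08 and 1.05 (log2), and these 2 differed from each other with an SD of 0.21. For ABA the same SDs were 1.03, 0.94 and 0.20, and for ABA+DMTU 0.79, 0.85 and 0.42. For DMTU, where replicate 3 stood apart, replicates 1 and 2 differed with an SD of 0.26, 1 and 3 with 0.57 and 2 and 3 with 0.51. Over all probe sets these SDs were smaller, at 0.56, 0.55 and 0.17 for control and 0.51, 0.47 and 0.17 for ABA. They were 0.41, 0.40 and 0.24 for ABA+DMTU and 0.21, 0.35 and 0.32 for DMTU. Whether the rule gathered probe sets on which single arrays lay apart was not tested. Replicate 3 of DMTU was the lowest of its group in 94 of 160 members, and without it 124 probe sets met the rule, 117 of them members. Replicate 1 of ABA+DMTU was the highest of its group in 95 members, and without it 140 probe sets met the rule, 113 of them members. Without replicate 1 of control 127 did, 108 of them members. How often these orders occur over all probe sets was not counted. Without replicate 1 of control and of ABA, 108 of the 160 members still met both thresholds, and the lowest interaction of any member was 0.36. With each array left out in turn, 59 members met the thresholds every time. Control probe sets moved with DMTU as well. The ubiquitin 3' minus 5' difference, a sign of RNA quality, averaged 0.92 ± 0.07 and 0.67 ± 0.04 in control and ABA arrays but 1.36 ± 0.07 and 1.10 ± 0.07 in DMTU and ABA+DMTU arrays (SD, n = 3). For actin it was 3.20 ± 0.46, 2.65 ± 0.09, 3.58 ± 0.12 and 3.31 ± 0.07 in the same order. Second probe pairs gave 0.76 ± 0.14, 0.94 ± 0.08, 1.09 ± 0.05 and 1.29 ± 0.13 for actin. They gave 0.33 ± 0.07, 0.30 ± 0.10, 0.46 ± 0.05 and 0.56 ± 0.15 for ubiquitin. For GAPDH the second pair gave -0.07 ± 0.19, -0.05 ± 0.03, 0.02 ± 0.05 and 0.25 ± 0.24. Means of these pairs thus shifted upwards where DMTU was present. Only the first GAPDH pair did not follow DMTU, at 0.45 ± 0.10, 0.59 ± 0.07, 0.41 ± 0.19 and 0.64 ± 0.45. The bioC spike-in averaged 8.15 ± 0.15 and 8.36 ± 0.39 without DMTU, and 9.16 ± 0.12 and 9.10 ± 0.47 with it. Of 18 marker loci for dividing cells and other plant cell types, 1 had a named probe set, AUR1, a kinase of dividing cells. Its level was 8.14 ± 0.65 in control, 4.81 ± 0.51 with ABA, 9.24 ± 0.22 with DMTU and 5.00 ± 0.30 with both (SD, n = 3). In such bulk samples, fewer cells of a type and less RNA per cell cannot be told apart. The part of these shifts in the results was not tested, and a batch that all DMTU arrays shared cannot be told apart from DMTU.

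A larger ABA difference with DMTU can come from a lower level in DMTU alone or from a higher level in ABA+DMTU, and the members divided into these forms. In 85 of 160 members at least 66.7% of the interaction came from a DMTU level below control, and these are called the lower baseline class. In 52 members at most 33.3% did, and these are called the higher level class. The other 23 were mixed. Median levels of the lower baseline class were 7.86 in control, 9.28 with ABA, 6.16 with DMTU and 8.94 with both. Those of the higher level class were 4.94, 5.75, 5.26 and 7.68, and of the mixed class 6.78, 8.45, 6.18 and 9.46. The lower baseline class dipped in DMTU and ended near its ABA level, while the higher level class stood out under the combined treatment. The definition of the classes largely fixes this.

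**Figure D1:**
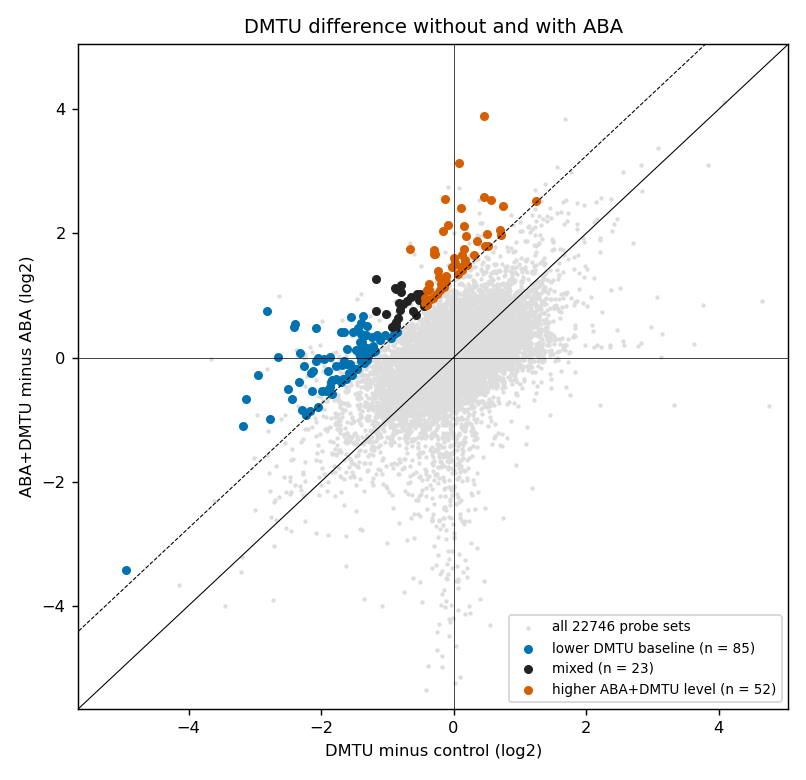
Each point is a probe set, with DMTU minus control on the x axis and ABA+DMTU minus ABA on the y axis, both log2 differences of group means; grey points are all 22746 probe sets and coloured points the 160 members by class. By the rule that chose them, members lie on or above the dashed line, 1.25 above equality, and they spread from the left (85 of the lower baseline class) to the top (52 of the higher level class).

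The design holds a treatment contrast that the rule did not use, the DMTU effect averaged over cells without and with ABA. It lies below 0 where the lower baseline is the larger part of a member's interaction and above 0 where the higher ABA+DMTU level is. A shift that all arrays with DMTU shared would enter this contrast in full, and it cannot be told apart from DMTU. A probe set counted as called when limma's adjusted p (Benjamini-Hochberg, all 22746 probe sets) was under 0.05. By this contrast 53 of the 160 members fell with DMTU and 33 rose. Those are 33.1% and 20.6% of members, where 12.9% of all probe sets fell and 15.4% rose. The median was -0.37 over the members and 0.04 over all probe sets. An interaction of at least 1.25 needs a DMTU difference without or with ABA, and the average is near 0 only where these differences nearly cancel. Members were also less often dim. Control means lay under 3.92, the median of the arrays' lower quartiles, in 9 of 160 members, beside 25.9% of all probe sets. DMTU means did in 12 members, beside 25.2%. ABA+DMTU means did in 0, beside 23.8%, which the rule made likely, since it asked for ABA+DMTU to lie above DMTU. The selection can therefore raise the shares called, by an amount that was not tested. Without replicate 1 of control and of ABA, 65 members fell and 40 rose, where 14.7% and 16.5% of all probe sets did. All 53 falls lay in the lower baseline class and all 33 rises in the higher level class. The definition fixes the sign of the averaged effect in these classes, but not whether a mixed member is called. Without the arrays just named, and with the classes kept, 1 fall was of a mixed member and 1 rise of a lower baseline member.

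The contrasts that share means with the rule follow as description, since the selection raised their counts. In DMTU against control, 78 members were called lower and 1 higher, beside 8.26% and 9.39% of all probe sets. In ABA+DMTU against ABA, 52 members were called higher and 1 lower, beside 7.36% and 6.86%. The interaction itself was called higher for 68 members, beside 1.16% of all probe sets, and lower for 0, beside 1.65%. Every control array lay above every DMTU array in 79 of the 85 lower baseline members and in 7 of the 52 higher level members, beside 17.4% of all probe sets. Every ABA+DMTU array lay above every ABA array in 48 higher level and 4 lower baseline members, beside 19.7% of all probe sets. The opposite orders were found in 8 and 6 members, beside 21.3% and 15.3%.

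**Figure D2:**
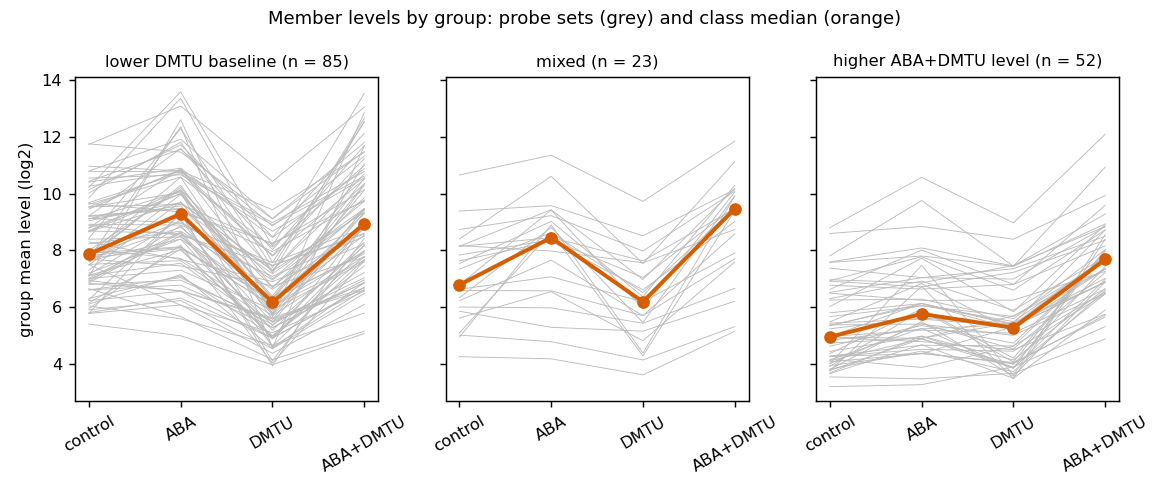
Group mean log2 levels of the members (grey lines) and their class medians (orange points and lines) in the 4 groups, with a panel for each class. The lower baseline class has its lowest median in DMTU, 6.16, while the higher level class has its highest in ABA+DMTU, 7.68, as the definition of the classes largely fixes.

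The response to ABA alone was uneven among the members. It was at least 1 in 64 members, at most -1 in 1 and between these in 95, and it was below 0 in 32. In ABA against control, 68 members were called higher, beside 15.5% of all probe sets, and 1 lower, beside 19.8%. With DMTU present 150 were called higher, beside 18.8%, and 0 lower, beside 20.6%, as the rule made likely. Every ABA array lay above every control array in 75 members (20.7% of all probe sets) and below in 3 (23.7%). For ABA+DMTU over DMTU this held in 156 members (26.3%).

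The level under both agents was also set against untreated cells. In ABA+DMTU against control, 103 members were called higher and 2 lower, beside 17.6% and 19.4% of all probe sets. Every ABA+DMTU array lay above every control array in 106 members (25.2% of all probe sets), 37 of the lower baseline and 49 of the higher level class. Of the 85 lower baseline members 49 ended within 1 of control, against 2 of the 52 higher level members, a split that the definition of the classes largely fixes. Control means were under 3.92, the median of the arrays' lower quartiles, in 9 of 52 higher level members and in 0 of 85 lower baseline members. That was so for 25.9% of all probe sets. DMTU means were under it in 10 of 52 and 1 of 85, beside 25.2% of all probe sets. How low a level these arrays can register was not tested.

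Loci were named by a rule on class, size and protein family. The tables used here give these loci no function, so the families stated are general background. Among the lower baseline loci, the largest interactions belonged to a RING finger gene and to a pair of knottin genes. Control arrays of AT3G43430, of the RING finger family that includes ubiquitin ligases, read 7.84, 7.36 and 7.27, and ABA arrays 5.68, 6.35 and 6.13. DMTU arrays read 5.25, 5.01 and 4.99, and those with both agents 7.09, 6.33 and 6.24. It was the single member called lower with ABA alone, and in the presence of DMTU the ABA arrays were the higher ones. Its interaction was 2.91 ± 0.34 (SE), and it fell by the averaged contrast, at -0.96 ± 0.17 (adjusted p = 0.00211, limma).

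AT2G43535 encodes a small cysteine-rich protein of the knottin type. Its control arrays read 9.34, 8.86 and 9.15 and its ABA arrays 9.11, 9.90 and 9.69, against 6.32, 6.22 and 5.94 with DMTU and 9.74, 9.02 and 9.12 with both agents. DMTU arrays stood apart far below, and the other groups overlapped. By the averaged contrast it fell, at -1.61 ± 0.17 (adjusted p = 7.42e-05, limma). The adjacent gene AT2G43530, of the same protein type, read 9.61, 9.33 and 9.64 in control and 10.70, 10.89 and 10.89 in ABA arrays, and 8.21, 7.92 and 7.34 with DMTU and 11.55, 11.16 and 10.99 with both. Here all 4 groups were separate, in the order DMTU, control, ABA, ABA+DMTU. The averaged effect was -0.65 ± 0.15 (adjusted p = 0.00803, limma).

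AT5G22460, an alpha/beta-hydrolase, read 10.79, 9.99 and 9.89 in control arrays and 7.62, 7.62 and 9.21 in DMTU arrays. With ABA it read 13.67, 13.57 and 13.53, and with both agents 13.79, 13.23 and 13.59. The groups with ABA overlapped, and those without it did not. Its averaged effect was -1.06 ± 0.27 (adjusted p = 0.0136, limma). AT5G61660, a glycine-rich protein, had an averaged effect of -1.88 ± 0.22 (adjusted p = 0.000177, limma). Its control arrays read 9.59, 9.33 and 9.45, its ABA arrays 10.10, 11.17 and 11.26, its DMTU arrays 6.65, 6.24 and 7.18 and those with both agents 9.56, 9.76 and 10.26. DMTU arrays were again lowest, and ABA and ABA+DMTU arrays overlapped. AT3G20370, named after its values were seen, read 6.54, 9.59 and 9.87 in control and 7.59, 7.15 and 5.31 in DMTU arrays, so that replicate 1 of control lay apart. Its averaged effect of -1.26 ± 0.76 did not pass (adjusted p = 0.245, limma), and without replicate 1 of control and of ABA it was -2.42 ± 0.36 (adjusted p = 0.000597).

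AT1G69523, an S-adenosylmethionine-dependent methyltransferase, averaged 7.12 ± 0.39 in control and 4.97 ± 0.24 in DMTU arrays, and 8.01 ± 0.62 with ABA and 7.77 ± 0.27 with both (SD, n = 3). Its averaged effect was -1.19 ± 0.21 (adjusted p = 0.00167, limma). AT1G49500 averaged 6.89 ± 0.16 and 5.46 ± 0.28 without ABA, and 8.87 ± 0.61 and 9.34 ± 0.13 with it. For this locus the averaged contrast, -0.48 ± 0.18, did not pass (adjusted p = 0.068, limma).

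Replicate 1 of control weighed on several lower baseline members. AT2G25450, a dioxygenase of glucosinolate side-chain hydroxylation, had the largest ABA differences of any member, 5.54 without and 7.20 with DMTU. Its control arrays read 8.56, 6.27 and 6.38 and its DMTU arrays 5.78, 5.45 and 5.74. Without replicate 1 of control and of ABA its interaction of 1.67 ± 0.66 became 1.04, under the threshold, and its class became mixed. AT2G26690, of the nitrate and peptide transporter family, read 6.54, 5.37 and 5.39 in control and 3.83, 4.18 and 3.74 in DMTU arrays, and its interaction of 1.46 became 1.15. AT2G20670 read 7.57, 5.51 and 5.69 in control and 4.06, 4.14 and 4.09 in DMTU arrays, and its interaction of 1.30 became 0.82. For each of these loci control arrays did not overlap DMTU arrays. AT2G26690 and AT2G20670 fell by the averaged contrast, at -1.12 ± 0.21 and -1.51 ± 0.32 (adjusted p = 0.00231 and 0.00517, limma), and AT2G25450 did not pass, at -0.58 ± 0.33 (adjusted p = 0.215).

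AT1G22430, alcohol dehydrogenase-like, read 7.86, 7.89 and 7.92 in control and 6.30, 5.79 and 5.99 in DMTU arrays. It fell by the averaged contrast, at -1.17 ± 0.13 (adjusted p = 0.000119, limma), and its interaction of 1.39 became 1.17 without replicate 1 of control and of ABA. AT1G49010, a MYB-related protein, averaged 7.10 ± 0.50 in control and 5.26 ± 0.03 in DMTU arrays, with an averaged effect of -1.21 ± 0.18 (adjusted p = 0.000702, limma). Its interaction of 1.25 became 1.13 without those arrays. Smaller falls were those of the RING finger gene AT2G15580 (-0.61 ± 0.16), the sulfotransferase AT2G03750 (-0.70 ± 0.16), the phosphoesterase AT3G09960 (-0.58 ± 0.13) and the acyltransferase AT3G50280 (-0.68 ± 0.23). Their adjusted p were 0.0182, 0.00916, 0.00702 and 0.0456 (limma), and the last lost its call under 10 of 19 alternative settings. The effect of AT2G15580 was -0.39 without replicate 1 of control and of ABA and kept its call.

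In the higher level class AT5G22860, a serine carboxypeptidase of the S28 family, had the largest interaction of any locus, 3.05 ± 0.31. Its control arrays read 3.52, 3.91 and 3.83, its DMTU arrays 3.70, 4.07 and 3.76 and its ABA arrays 4.78, 4.73 and 5.11, against 7.47, 8.25 and 8.30 with both agents. All control arrays lay under 3.92, the low mark given above. Control and DMTU arrays overlapped, ABA arrays lay above them, and ABA+DMTU arrays lay above all others. It rose by the averaged contrast, at 1.61 ± 0.15 (adjusted p = 4.16e-05, limma). AT2G38640, of the LURP1-like family, averaged 4.42 ± 0.25 in control, 4.12 ± 0.20 in DMTU, 4.97 ± 0.23 in ABA and 6.64 ± 0.32 in ABA+DMTU arrays. Its averaged rise was 0.69 ± 0.14 (adjusted p = 0.00364, limma).

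AT3G08670 was the single member called higher in DMTU against control. Its control arrays read 4.25, 4.14 and 3.79 and its DMTU arrays 5.17, 5.03 and 5.69, against 5.03, 3.91 and 4.11 with ABA and 6.85, 6.93 and 6.84 with both agents. Control and ABA arrays overlapped, and ABA+DMTU arrays were highest. Its averaged rise was 1.88 ± 0.19 (adjusted p = 6.02e-05, limma). AT2G29310, a short-chain dehydrogenase related to tropinone reductases, averaged 4.65 ± 0.56 with ABA and 6.53 ± 0.32 with both agents, and rose by 1.12 ± 0.19 (adjusted p = 0.00134, limma). The F-box gene AT2G36090 averaged 5.66 ± 0.36 in control, 5.66 ± 0.15 in DMTU, 6.04 ± 0.66 in ABA and 7.64 ± 0.11 in ABA+DMTU arrays, and rose by 0.80 ± 0.20 (adjusted p = 0.0114, limma). That rise was 0.51 without replicate 1 of control and of ABA and 0.49 with array quality weights, and it kept its call. AT3G17110 rose by 0.89 ± 0.14 (adjusted p = 0.00085) and AT5G37590 by 0.98 ± 0.15 (adjusted p = 0.000737, limma). The interaction of AT5G37590 was 1.21 without replicate 1 of control and of ABA, under the threshold. With each of the 12 arrays left out in turn, AT5G37590 met both thresholds 8 times, AT3G08670 6 times and AT3G17110 12 times.

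Other higher level loci leaned on single arrays. AT2G07708, whose probe set ID ends in _s_at, read 8.13, 8.12 and 5.73 with both agents and 6.08, 5.53 and 5.45 with DMTU, so the groups overlapped. Its averaged rise was 1.59 ± 0.40 (adjusted p = 0.0132, limma). AT4G05070, of a wound-responsive family, read 6.18, 7.15 and 7.21 in ABA and 8.17, 9.27 and 9.07 in ABA+DMTU arrays. Its averaged rise was 1.25 ± 0.24 (adjusted p = 0.00299, limma), and its interaction of 1.49 became 1.00 without replicate 1 of control and of ABA. AT4G14270 read 5.04, 7.49 and 7.36 in ABA and 6.85, 8.67 and 8.95 in ABA+DMTU arrays, and without the same arrays its interaction was 0.36. The averaged effects of AT4G14270, 0.78 ± 0.47, and of AT1G75280, isoflavone reductase-like, 0.72 ± 0.26, did not pass (adjusted p = 0.246 and 0.0615, limma).

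Mixed members lay lower with DMTU alone and higher with both agents. AT4G37180, a MYB-related protein, read 6.51, 6.23 and 6.23 in control and 5.68, 5.62 and 5.04 in DMTU arrays, and 9.09, 8.64 and 8.69 with ABA and 10.15, 9.86 and 9.75 with both. All 4 groups were separate. Its interaction of 1.99 ± 0.27 held a DMTU difference of -0.87 without ABA and of 1.11 with it. AT2G40460, of the same transporter family as AT2G26690, averaged 5.08 ± 0.09 in control and 4.27 ± 0.38 in DMTU arrays, and 8.63 ± 0.57 with ABA and 9.39 ± 0.09 with both. AT1G09310 averaged 7.62 ± 0.19, 6.60 ± 0.28, 8.31 ± 0.20 and 9.01 ± 0.27 in that order.

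Other mixed members were less even. AT1G21520 read 7.46, 7.94 and 8.10 in control and 7.79, 7.00 and 6.32 in DMTU arrays, so these overlapped. AT5G50915, a bHLH protein, read 6.97, 4.03 and 4.41 with both agents and 3.59, 3.60 and 3.60 with DMTU, so replicate 1 stood alone. AT5G03230 read 7.04, 5.65 and 5.96 in control arrays, and its interaction of 1.45 became 0.74 without replicate 1 of control and of ABA. That of AT5G14120, of the major facilitator family, went from 1.44 to 1.14. The interactions of AT1G21500, AT4G01870 and AT1G33760, of the AP2/ERF family, were 1.62 ± 0.31, 1.53 ± 0.41 and 1.41 ± 0.54. Without replicate 1 of control and of ABA, AT5G50915, AT5G03230 and AT4G01870 fell in the higher level class. AT1G33760 then fell in the lower baseline class. No mixed member was called by the averaged contrast.

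**Figure D3:**
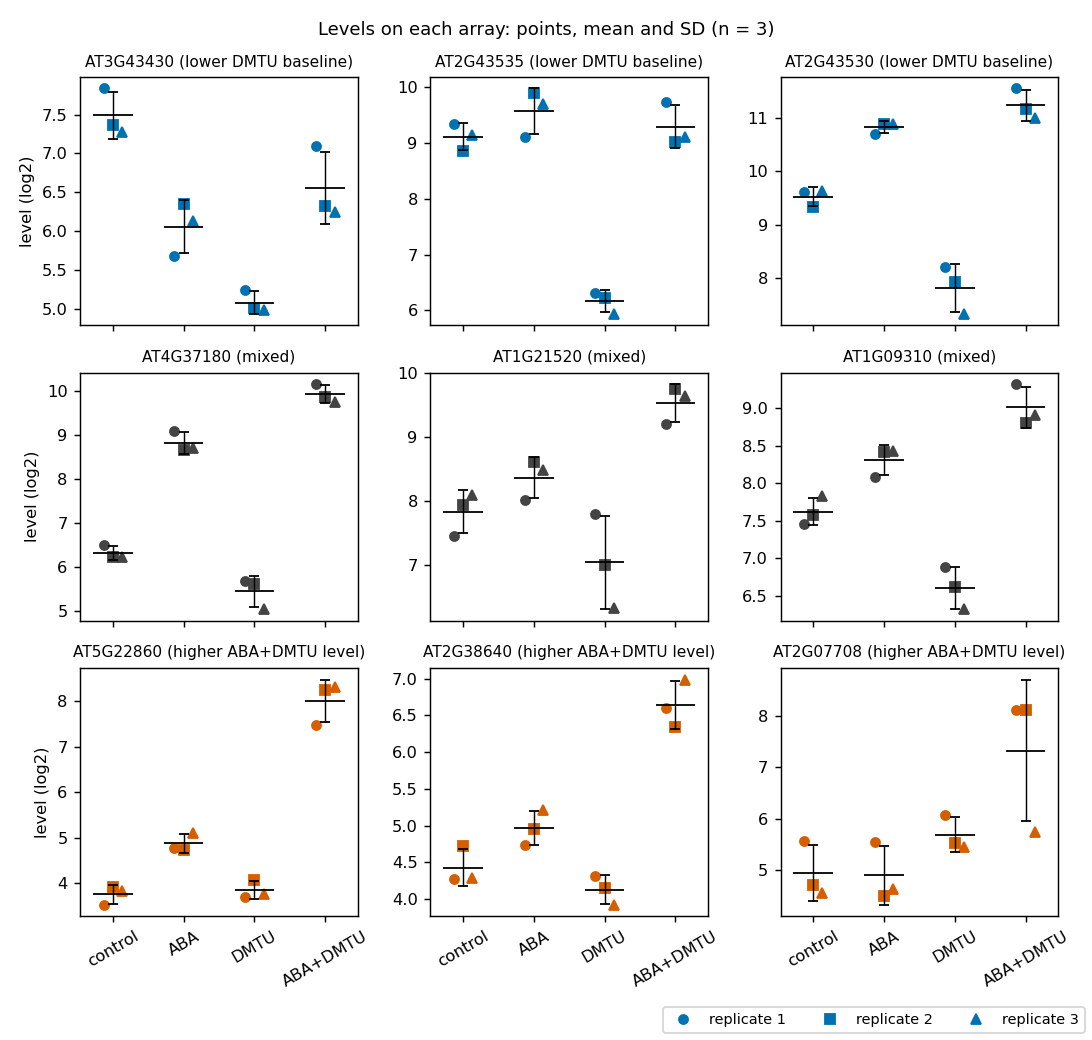
Log2 levels on each array for the 3 loci with the largest interaction in each class; points are replicates, lines with bars the mean and SD (n = 3), and y axes differ between panels. DMTU arrays are lowest in the top row (for AT2G43535, 6.32, 6.22 and 5.94), the mean is lowest in DMTU and highest in ABA+DMTU in the middle row, and the mean is highest in ABA+DMTU in the bottom row, with 1 array of AT2G07708 at 5.73.

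Families were assigned to 37 of the 62 loci by hand after values had been seen, and their counts are description only. They stand beside 53.1% of all members in the lower baseline class and 32.5% in the higher level class, and beside the 12.9% of all probe sets that fell and 15.4% that rose. All 4 group transferases were in the lower baseline class, and 3 of them fell by the averaged contrast. Of 6 oxidoreductases 4 were in the higher level class, with 2 averaged rises, and 2 in the lower baseline class, with 1 fall. Of the 8 hydrolases, 4 were in each of those classes, with 3 falls and 1 rise. Among 5 DNA-binding regulators 3 were mixed and 2 fell, and among 3 transporters 2 were mixed and 1 fell. Of 3 RING and F-box proteins 2 fell and 1 rose, and of 2 leucine-rich repeat proteins 1 rose. Of 6 defence and wall proteins 4 were in the lower baseline class, and 3 of the 6 fell and 2 rose.

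In the RefSeq gene order (TAIR10.1), in which 61 loci could be placed, 4 pairs of member loci lay within 3 protein-coding genes of each other. Each pair was in a single class. The knottin pair was in the lower baseline class, and AT1G21500 and AT1G21520 were mixed. The dehydrogenases AT2G29310 and AT2G29320 were in the higher level class, as were AT3G04000, a short-chain aldehyde reductase, and AT3G04010, a glycosyl hydrolase. Of 15 other named loci within that distance of the pairs, 0 met the interaction threshold, which leaving out the members made likely. Limma called 2 of them for the interaction, where 1.16% of all probe sets were called higher and 1.65% lower. They were AT1G21540 at -1.85 ± 0.20 (adjusted p = 0.000834) and AT3G03980 at 0.70 ± 0.16 (adjusted p = 0.0393). Beside the knottin pair, AT2G43540 and AT2G43550 had interactions of 0.15 ± 0.14 and 0.44 ± 0.34, which did not pass.

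**Figure D4:**
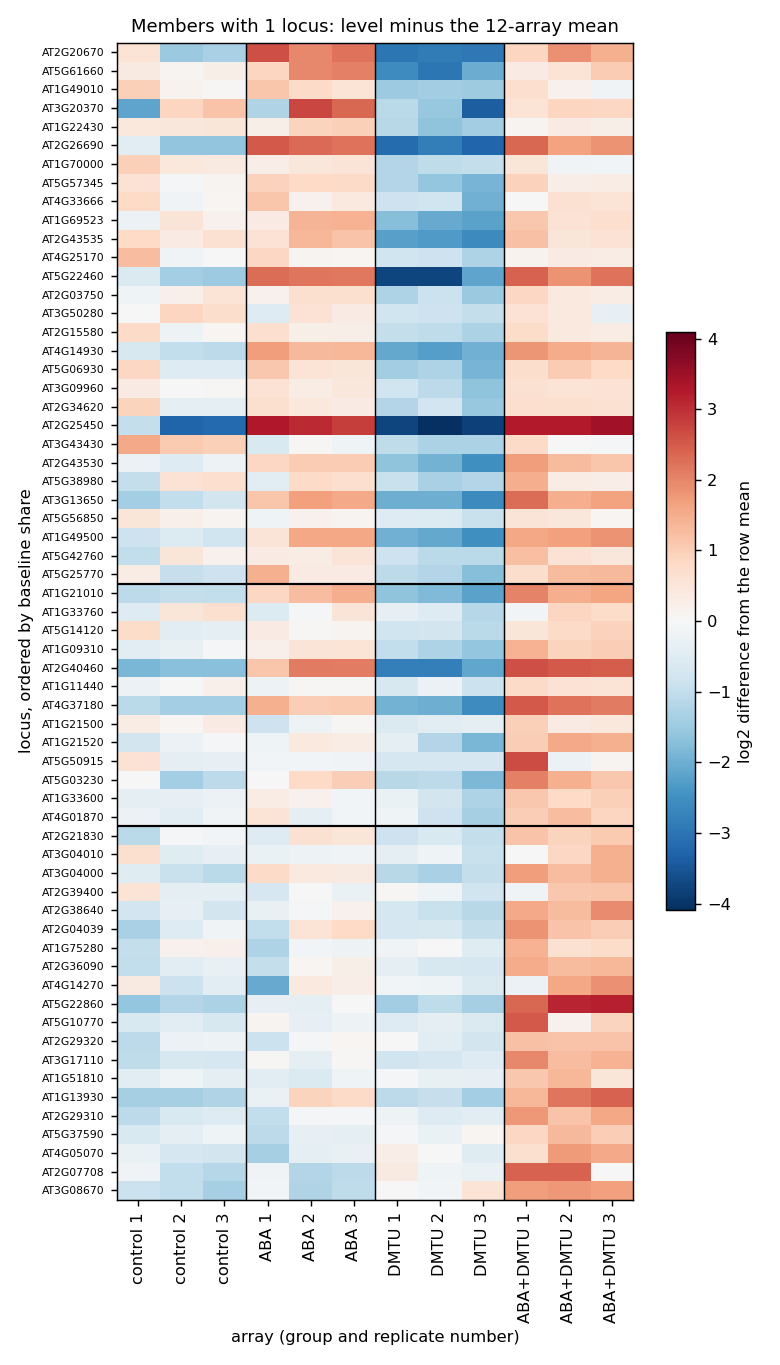
Log2 level on each of the 12 arrays minus the 12-array mean, for the 62 members with 1 locus, ordered by the share of the interaction that came from the lower DMTU baseline; horizontal lines part the lower baseline (top), mixed and higher level (bottom) classes. Most DMTU arrays are blue (below the mean) in the top block, and most ABA+DMTU arrays are red (above it) in all 3 blocks.

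Of the 98 members without a single locus, 34 (34.7%) fell and 21 (21.4%) rose by the averaged contrast, and of the 62 loci 19 (30.6%) and 12 (19.4%) did, beside 12.9% and 15.4% of all probe sets. The 3 described here were picked after their values were seen. Probe set 262947_at had an interaction of 3.56 ± 0.42, and of 3.00 without replicate 1 of control and of ABA. Its control arrays read 10.89, 9.46 and 9.71, its ABA arrays 11.57, 11.95 and 11.91, its DMTU arrays 7.32, 7.10 and 7.20 and those with both agents 12.76, 12.37 and 12.54. All 4 groups were separate, and its averaged effect was -1.04 ± 0.21 (adjusted p = 0.00401, limma). Probe set 252618_at read 4.50, 3.88 and 4.08 in control, 3.76, 3.87 and 3.96 in ABA and 4.47, 4.42 and 4.94 in DMTU arrays, against 8.00, 8.00 and 7.27 with both agents. It stood out under the combined treatment, with an averaged rise of 2.17 ± 0.16 (adjusted p = 7.38e-06, limma). Probe set 252415_at had the lowest averaged effect of any member, -4.19 ± 0.55 (adjusted p = 0.000316, limma). It read 10.46, 8.83 and 9.27 in control and 4.52, 4.73 and 4.49 in DMTU arrays, and 11.81, 8.76 and 9.53 with ABA and 8.11, 5.74 and 5.97 with both. Arrays with DMTU were thus lower both without and with ABA, and did not overlap those lacking it.

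At the interaction threshold the members just inside had 1.25006, 1.25018 and 1.25292, the last being AT5G56850, whose averaged effect of -0.32 ± 0.12 did not pass (adjusted p = 0.0639, limma). Just outside, AT2G35820, AT1G49200 and AT2G32150 had 1.24363, 1.24313 and 1.24308.

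Listed ABA and oxidative stress genes were read beside the members. None was a member, but the rule left out every gene with a symbol, whatever its values. Of 14 genes for ABA-responsive proteins 7 had a named probe set. All 7 rose with ABA in the presence of DMTU and 6 without it (limma), beside 18.8% and 15.5% of all probe sets. By the averaged contrast 2 rose and 3 fell, beside 15.4% and 12.9%. For the interaction 0 were called higher and 2 lower, LEA18 and HIS1-3, beside 1.16% and 1.65%, with 4 at an unadjusted p under 0.05. The dehydrin gene COR47 met both thresholds, with an interaction of 1.61 (adjusted p = 0.252, limma), and was set aside for its symbol. Of 7 transcripts known to rise with several reactive oxygen species, 5 had a named probe set. Limma called 0 of them by the averaged contrast (2 at an unadjusted p under 0.05) and 0 for the interaction (1 at an unadjusted p under 0.05). Of 19 genes that handle hydrogen peroxide 3 had a named probe set, and for both contrasts limma called 0 of them (0 at an unadjusted p under 0.05). None of 14 ABA signalling genes had one.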

How the data were processed

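RNA from 12 samples was labelled with biotin by a 3' IVT kit for Affymetrix arrays, per the labels' protocols. The deposited values are log2 levels per probe set. RMA and limma are named per the submitters' processing notes, with neither role nor version. Whether arrays were normalized together is not given in the sources used here. Array medians lay between 5.78 and 6.05, and nothing further was normalized. The precision is limited by the small number of arrays.

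Of 22810 probe sets, 64 controls were left out. Names came from the platform annotation, updated through RefSeq, and 8730 probe sets are unnamed here. RefSeq gave no protein function, so families were assigned by hand in place of the planned search of product words. Sequences were not used here.

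Limma 3.58.1 in R 4.3.3 fitted the 4 group means over 12 arrays (8 residual degrees of freedom), with two-sided moderated tests, and was tested on simulated data. Errors of differences are standard errors and those of levels SDs. The members and lists were chosen with earlier results of these data known. Named loci were, among members with 1 locus, the 8 largest interactions per class, the 6 largest averaged DMTU effects per direction among those that passed, up to 3 per family of 3 or more, and those at the threshold. Alternatives were array centring, quantile normalization, array weights, a replicate block, a trended variance, a filter on dim probe sets, leaving out arrays and other class bounds. Tables and plots were made with Python 3.11.15, pandas 2.3.3 and matplotlib 3.10.9.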

Additional observations from a re-analysis of the deposited data

Results flagged for a closer look

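Among the genes named above that are not members, the ABA effect differed with and without DMTU by limma's interaction test for 4. HIS1-3 (AT2G18050), a linker histone, had an interaction of -3.09, and LEA18 (AT2G35300) had -3.25. AT1G21540, near the member AT1G21520, had -1.85, and AT3G03980, near AT3G04000, had 0.70. Members were chosen on this quantity and are not listed. With 3 arrays a group, no formal outlier test was run. The arrays that stood apart are described with the results.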

How the results depend on the processing

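The counts of members by class and of averaged falls and rises stayed within 1.5 times under the alternatives run, with these exceptions. With array quality weights the averaged DMTU effect called 5884 probe sets higher and 4789 lower, against 3504 and 2939, and 51 members higher, against 33. With class bounds of 60% and 40% the mixed class held 13 members, against 23. Stable totals do not show members that changed class. Without replicate 1 of control and of ABA, 138 of the 160 members kept their class, and 14 of the 23 mixed ones did. Both the thresholds and the class were kept by 97 members. Leaving out an array in turn gave 30 to 37 members rising, 48 to 58 falling, and 124 to 185 probe sets that met the rule. With array weights 111 probe sets met the rule, of which 89 were members. Of the 23 named loci with an averaged call, 22 kept it under all 19 settings and none changed sign. AT3G50280 lost it under 10. Some of these loci were named for the size of that effect, and the settings shared most arrays. The count therefore does not extend to other members. No label says what a replicate number marks, and for the DMTU contrasts the numbers did not pair the arrays: deviations of same-numbered control and DMTU arrays correlated at 0.20, -0.06 and 0.13, and of ABA and ABA+DMTU arrays at -0.11, -0.17 and -0.02. Same-numbered control and ABA arrays correlated at 0.52, 0.42 and 0.39, but the highest correlations with another number were -0.44, 0.41 and 0.44, so the same number stood out for replicate 1 alone. With the replicate block, 63 members fell and 36 rose, 3565 probe sets were called higher and 2996 lower, and 67 members were called for the interaction against 68.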
